A study of Mus musculus with 6 samples.

Results

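Laminins are the proteins on which basement membranes are built, and 10 genes of that layer are described here in mouse heart cells: the laminin chains Lama2, Lama4, Lama5, Lamb1, Lamb2 and Lamc1, the linker genes Nid1 and Nid2, and the heparan sulfate proteoglycans Hspg2 (perlecan) and Agrn (agrin). The genes were listed by name, with no measured value in the rule, to ask which cell makes which chain. All 10 were found, among 27179 genes of the bulk count table and 30716 gene columns of the single-cell tables.

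A laminin is a trimer of an alpha, a beta and a gamma chain that is joined inside the cell, secreted, and polymerised on the cell surface. Nidogens tie the laminin sheet to the type IV collagen network, and perlecan and agrin bind it to growth factors and to receptors. Around each cardiomyocyte, the laminin sheet holds dystroglycan and integrin receptors that couple the contracting cell to its surroundings.

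In the study, immature cardiomyocytes (imCMs) from newborn mice (C57BL/6 in the labels, C57BL/6J in the methods) were grown on cardiac fibroblasts of neonatal hearts (NFs) or adult hearts (AFs), with no allele or drug named for either group. Bulk RNA sequencing of the imCMs gave 2 libraries with NFs (imCM-NF) and 2 with AFs (imCM-AF), and single cells of the system were sequenced in 1 library labelled cardiomyocytes and 1 labelled fibroblasts. Per the methods, the fibroblasts had been passaged, more AFs than NFs were plated per imCM, and co-cultured cells were sorted by dye, whereas the labels name slow centrifugation as the separation. The study states independent experiments for its data in general, but the labels do not say that these libraries came from separate cultures, so p-values measure the spread between these libraries, which may be technical.

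The bulk libraries held 9278909 to 12088577 counts. The 15 cardiomyocyte markers summed to between 34699 and 48970 library-scaled counts (CPM), and 12 fibroblast markers summed to 15533 and 17067 CPM in imCM-NF but to 10868 and 8608 CPM in imCM-AF, so transcripts typical of both kinds of cell were present. The single cells were read in wells of a nanowell chip, with unique molecular identifiers (UMIs) that count molecules. After filters, 2247 of 2462 wells were kept, and the median well held 18238 UMIs in the library labelled cardiomyocytes and 27809 UMIs in that labelled fibroblasts. The libraries had 269 well barcodes in common. Each well also carries a Type name, and there were 16 Types, such as NFNCM1 or AF2, in which NF, AF and NCM have the sense of the bulk titles. The meaning of the 0 in NCM0, NF0 and AF0 was not given in the sources used here.

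Of the 10 genes, only Agrn was called between the bulk groups, and Lamb1 was the laminin chain with the lowest ratio, so the bases before these starts are printed side by side. Agrn spans chr4:156165290-156197533 and Lamb1 chr12:31265146-31329644 (GRCm38). A promoter window was matched for 7 of the 10 genes in RefSeq (GRCm38.p6), each with 250 bases before a transcript start that can lie inside the annotated span of the gene. Capitals mark GC boxes (GGGCGG on either strand, which may overlap each other). The bases shown are those of the window nearest to the annotated gene but outside it, at most 150. For Agrn they are chr4:156197534-156197683 on the minus strand, and for Lamb1 chr12:31265043-31265145 on the plus strand.
Agrn: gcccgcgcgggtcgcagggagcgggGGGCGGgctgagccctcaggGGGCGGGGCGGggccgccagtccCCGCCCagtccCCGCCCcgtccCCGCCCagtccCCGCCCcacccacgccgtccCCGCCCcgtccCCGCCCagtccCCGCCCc
Lamb1: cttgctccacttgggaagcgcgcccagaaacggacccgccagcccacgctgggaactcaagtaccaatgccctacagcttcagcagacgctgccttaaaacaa
The Agrn stretch held 10 GC boxes and the whole 250 bases held 12, a number that 0.0152% of all 32851 windows reached. The Lamb1 stretch held none, and its 250 bases held 2, both inside the annotated gene, a number that 16.7% of windows reached. A GC box was present in 32.7% of all windows, and neither gene had a TATA box (TATAAA, in 12.4% of windows). Among other members, the 250 bases held 5 GC boxes for Hspg2, 4 for Lama5, 1 for Nid1 and 0 for Lamb2. These matches describe letters only, nothing on the binding of a factor was measured, and no link to the bulk changes was tested.

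On a per-length scale (RPKM over the annotated exons, mean of 2 libraries), Hspg2 had the highest level of the 10 genes in imCM-NF, at 128 RPKM, and Lama2 the lowest, at 5.82 RPKM. Between them stood Lamb1 at 90.3, Nid1 at 81.5, Lamc1 at 75.1, Lamb2 at 63.9, Lama4 at 55.0, Nid2 at 23.2, Lama5 at 20.8 and Agrn at 18.5 RPKM. Neighbours in this order overlapped between libraries for Lamb1 and Nid1, for Nid1 and Lamc1, and for Lama5 and Agrn, so these pairs were not separated. In these libraries Lama4 was thus the most abundant alpha chain and Lama2, the alpha chain of mature muscle laminin, the least. The libraries also held transcripts typical of fibroblasts, so this order is not one of cardiomyocytes alone. In imCM-AF the mean of Agrn was 31.1 RPKM, above both Nid2 at 23.5 and Lama5 at 19.4 RPKM.

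imCM-AF was compared with imCM-NF over 14041 genes by edgeR's quasi-likelihood test, where a call needed both a Benjamini-Hochberg adjusted p below 0.05 and a log2 fold change beyond 0.58 in size. Of the 10 genes, 1 was called, against 11.1% of all genes tested (6.15% higher and 4.99% lower in imCM-AF). By adjusted p alone, 3 passed, against 27.0% of all genes. Of the 10 fold changes, 4 were above and 6 below 0, with a median of -0.10 beside 0.0011 for all genes. In bulk libraries, fewer cells of a type and less RNA per cell cannot be told apart.

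Agrn, known for clustering acetylcholine receptors at the nerve-muscle synapse and expressed in the developing heart, measured 150.4 and 138 CPM in the imCM-NF libraries and 244 and 241 CPM in the imCM-AF libraries. Both imCM-AF libraries were above both imCM-NF libraries, and the gap was many times the spread within a group. Agrn rose by 0.75 ± 0.10 on the log2 scale (SE, n = 2 libraries a group; adjusted p = 4.09e-05 in edgeR). It kept this call under every other scaling, filter and test that was run, and without each library in turn; the value failed only a fold threshold of 1 on the log2 scale.

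Among the alpha chains, Lama4, which is typical of vessel and developing muscle basement membranes, measured 329.8 and 335 CPM in imCM-NF against 260.5 and 224 CPM in imCM-AF. The groups did not overlap, and the log2 fold change of -0.46 ± 0.11 passed the adjusted p of edgeR (0.00516) but not the fold threshold. Without the second imCM-AF library the value was -0.35, with an edgeR adjusted p of 0.163, so the pass rests on that library.

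Lama2 measured 54.9 and 59.3 CPM in imCM-NF against 54.8 and 51.9 CPM in imCM-AF, which is a small separation with no call (log2 fold change -0.10 ± 0.10, edgeR adjusted p = 0.464). Lama5, a chain of epithelial and vessel laminins, overlapped between the groups, at 254 and 219 CPM against 214 and 228 CPM (-0.09 ± 0.11, edgeR adjusted p = 0.541). Neither chain therefore differed by more than the test can separate at this number of libraries.

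Of the beta chains, Lamb1 behaved like Lama4, and Lamb2 did not. Lamb1, the beta chain most tissues use early, measured 511 and 544 CPM in imCM-NF against 397 and 343 CPM in imCM-AF. The groups did not overlap (log2 fold change -0.51 ± 0.12, edgeR adjusted p = 0.00408), and without the second imCM-AF library the value was -0.40 with an edgeR adjusted p of 0.122. Lamb2, the beta chain of the neuromuscular synapse and of adult muscle, overlapped, at 385 and 334 CPM against 379 and 383 CPM (0.08 ± 0.11, edgeR adjusted p = 0.612). The difference between the fold changes of the beta chains was not tested.

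Lamc1, the gamma chain of nearly all laminins, measured 577 and 568 CPM in imCM-NF against 520.1 and 509.6 CPM in imCM-AF. The libraries did not overlap, yet the change was within the error of the test (-0.15 ± 0.12, edgeR adjusted p = 0.346). Groups did not overlap for 6 of the 10 genes, which is close to the 66.0% of all genes that did so with 2 libraries a group.

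The nidogens stayed level in mean and varied between libraries of one group. Nid1 measured 457 and 536 CPM in imCM-NF against 536 and 459 CPM in imCM-AF, and Nid2 113 and 113 CPM against 124 and 104 CPM. Both overlapped, with edgeR adjusted p-values of 0.986 and 0.931. Hspg2 measured 1818 and 1824 CPM in imCM-NF against 1473 and 1403 CPM in imCM-AF. Its groups were apart, but its log2 fold change of -0.34 ± 0.15 missed the threshold (edgeR adjusted p = 0.0961), and in DESeq2, which gave -0.33, it passed.

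**Figure D1:**
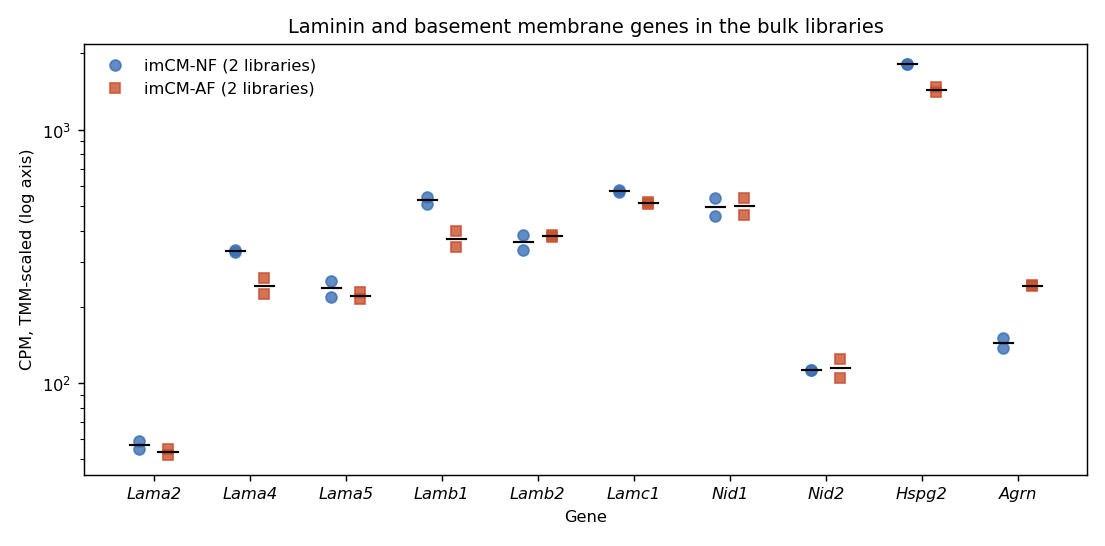
TMM-scaled CPM (log axis) of the 10 genes in each bulk library, with blue circles for the 2 imCM-NF libraries, orange squares for the 2 imCM-AF libraries and a black line at each group mean. Agrn stands higher in both imCM-AF libraries (244 and 241 against 150.4 and 138 CPM), and Lama4, Lamb1 and Hspg2 stand lower.

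Around these genes, 32 other genes of the basement membrane were listed, and 30 were tested (all but Lama3 and Lamc3, which did not pass the filter on low counts). None was called higher and 10 were called lower in imCM-AF, against 6.15% and 4.99% of all genes, and the median log2 fold change was -0.40. Those with the largest changes included Ltbp4, which tethers latent TGF-beta (-1.36), and Col15a1 (-1.30) and Col18a1 (-0.93), the collagens that carry endostatin-like domains. Smoc2 (-1.25), Col4a4 (-1.07), Fbln2 (-1.01), Npnt (-0.80) and Fbln1 (-0.73) were also called lower.

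Type IV collagen forms the other network of the layer, and its called chains, Col4a1 and Col4a4 (above), were lower in imCM-AF. Col4a3, Col4a5 and Col4a6, named after their values were seen, had log2 fold changes of -0.39, 0.08 and 0.26. None of them was called (edgeR adjusted p = 0.461, 0.589 and 0.120). Col4a1 measured 4037 and 4375 CPM in imCM-NF against 2860 and 2474 CPM in imCM-AF, and fell by 0.66 on the log2 scale (edgeR adjusted p = 0.0130). Its partner Col4a2 measured 2933 and 3058 CPM against 2355 and 2137 CPM, with no call (-0.42, edgeR adjusted p = 0.0741).

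Receptors were read from the same fit. Of 29 genes for receptors of laminin or agrin and for the enzymes that glycosylate dystroglycan, 28 were tested (all but Musk), 0 were called higher and 2 lower (6.15% and 4.99% of all genes), and the median log2 fold change was -0.07. The 2 were the integrin subunit Itgb4 (-1.01), at 6.69 and 5.62 CPM against 2.65 and 3.36 CPM, and the syndecan Sdc1 (-0.84), at 184 and 196 CPM against 119 and 93.8 CPM. The laminin receptor genes Dag1 (dystroglycan), Itgb1, Itga6 and Itga7 were not called, with log2 fold changes of -0.02, -0.08, -0.07 and 0.10 in that order.

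Markers of other cells moved with the lower genes. Of 12 fibroblast markers, 10 were lower in imCM-AF, with 6 called lower and Mfap5 called higher. All 12 endothelial markers were lower, 5 of them called, and their sum went from 1526 and 1629 CPM to 1185 and 1070 CPM. The sums of cardiomyocyte markers overlapped between the groups. The part of these cells in the values of Lama4, Lamb1 and Hspg2 was not tested. Agrn was higher in imCM-AF, where these sums were lower, and the part of these cells in its value was not tested either.

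**Figure D2:**
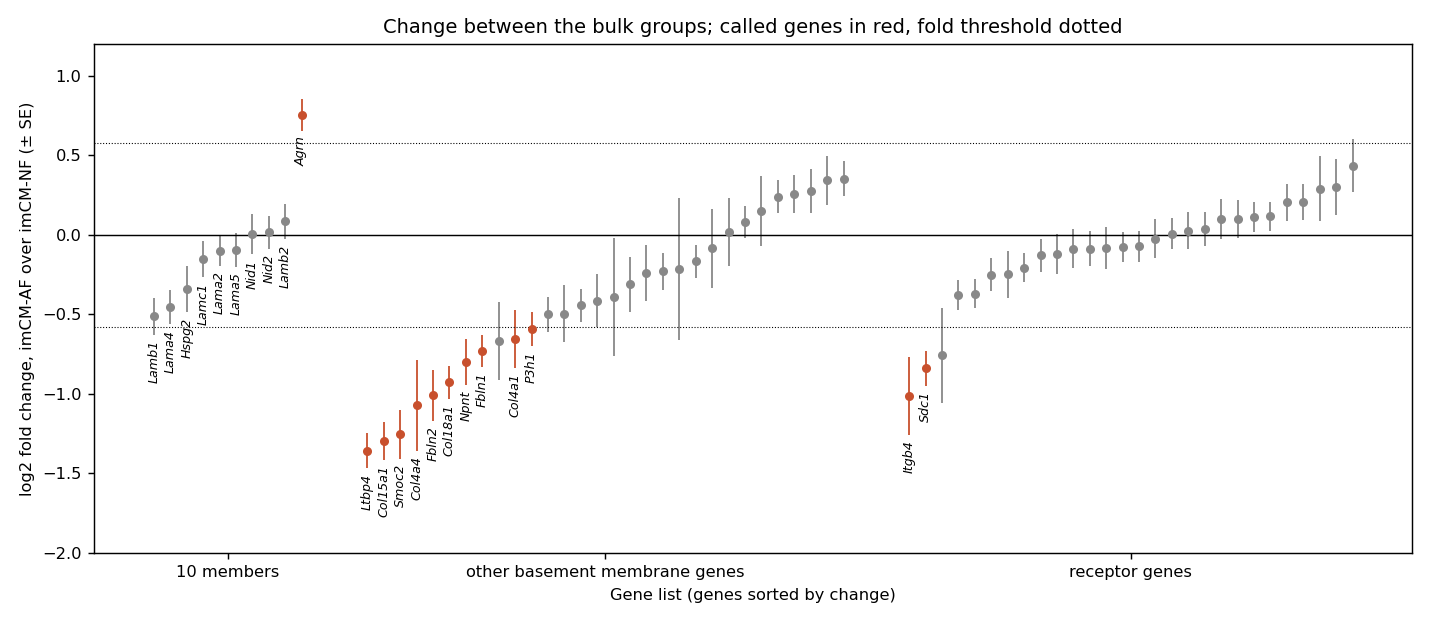
Log2 fold change of imCM-AF over imCM-NF with its SE, for the 10 genes, 30 other basement membrane genes and 28 receptor genes, sorted within each list, with called genes in red and the fold threshold of 0.58 as dotted lines. Agrn is the 1 called gene above 0, and 10 other basement membrane genes and 2 receptor genes are called below it.

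To ask which cell holds which transcript, wells were clustered without these genes, without the other basement membrane genes and without the receptors, and clusters were named by markers. There were 769 cardiomyocyte-like, 779 fibroblast-like, 121 endothelial-like and 38 macrophage-like wells. Of the others, 372 stayed unnamed, and 168 formed cluster 16, led by Upk1b and Lrrn4 and made of 167 AF0 wells and 1 other. Levels are the summed UMIs of a class as CPM of all its UMIs, with 95% Poisson intervals that cover counting error only. Each class holds wells of few Types and of 1 library of each kind, so no test was run, and UMI levels are compared between classes and not between genes.

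The alpha chains divided by class. Lama2 was highest in cardiomyocyte-like wells, at 50.2 CPM (47.4 to 53.1), with 43.7 CPM in fibroblast-like, 8.83 CPM in endothelial-like and 15.6 CPM in macrophage-like wells. Lama4 was highest in endothelial-like wells, at 106 CPM, with 80.5 CPM in fibroblast-like, 21.3 CPM in cardiomyocyte-like and 8.11 CPM in macrophage-like wells. Lama5 was at 46.0 CPM in endothelial-like and 39.6 CPM in cardiomyocyte-like wells, whose intervals overlapped, and at 16.3 CPM in fibroblast-like wells. One endothelial-like well held 26.4% of the Lama5 UMIs of its class.

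The beta chains also divided. Lamb1 was at 219 CPM in endothelial-like, 182 CPM in fibroblast-like and 62.6 CPM in cardiomyocyte-like wells. Lamb2 was at 84.9 CPM (81.3 to 88.7) in cardiomyocyte-like wells, 39.1 CPM in fibroblast-like, 29.6 CPM in endothelial-like and 32.4 CPM in macrophage-like wells. Lamc1, which pairs with either beta chain, was at 107 CPM in fibroblast-like, 94.2 CPM in endothelial-like and 54.2 CPM in cardiomyocyte-like wells, so every one of these classes held the gamma chain.

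Summed over each class, the linkers and proteoglycans were lower in cardiomyocyte-like wells than in fibroblast-like wells. Inside single Types this did not always hold for Nid2, Hspg2 and Agrn (below). Nid1 was at 228 CPM in fibroblast-like, 198 CPM in endothelial-like and 34.2 CPM in cardiomyocyte-like wells, a ratio of 6.67 (6.20 to 7.18) between the first and the last. One cardiomyocyte-like cluster of 94 wells, cluster 8, also held 7 of 12 fibroblast markers, and on the log2 scale this ratio was 2.74 with it and 4.27 without it. Nid2 was sparse in every class, at 5.82 CPM in fibroblast-like and 1.91 CPM in cardiomyocyte-like wells, and 1 well held 43.5% of its UMIs in the latter. Hspg2 was highest in endothelial-like wells at 92.3 CPM, with 63.6 CPM in fibroblast-like and 39.1 CPM in cardiomyocyte-like wells. Agrn was at 39.7 CPM in fibroblast-like and 38.6 CPM in endothelial-like wells, with overlapping intervals, at 19.2 CPM in cardiomyocyte-like wells, and at 1.25 CPM, from 2 UMIs, in macrophage-like wells.

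The share of wells with a UMI, after each well was thinned to 5000 UMIs (69 cardiomyocyte-like, 44 fibroblast-like, 9 endothelial-like and 3 macrophage-like wells were too shallow), gave the same picture for the clearest genes. Lamb2 was found in 28.7% of 700 cardiomyocyte-like wells, 12.2% of 735 fibroblast-like, 10.7% of 112 endothelial-like and 5.71% of 35 macrophage-like wells, and without thinning in 53.8%, 31.3%, 24.8% and 18.4%. Nid1 was found in 8.71% of thinned cardiomyocyte-like wells and 50.6% of thinned fibroblast-like wells (16% and 78.3% unthinned). The 5 wells of each library labelled as negative controls held 1 member UMI of 1465 UMIs (cardiomyocytes) and 4 of 3587 (fibroblasts). These are too few UMIs to set a background level for the members.

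**Figure D3:**
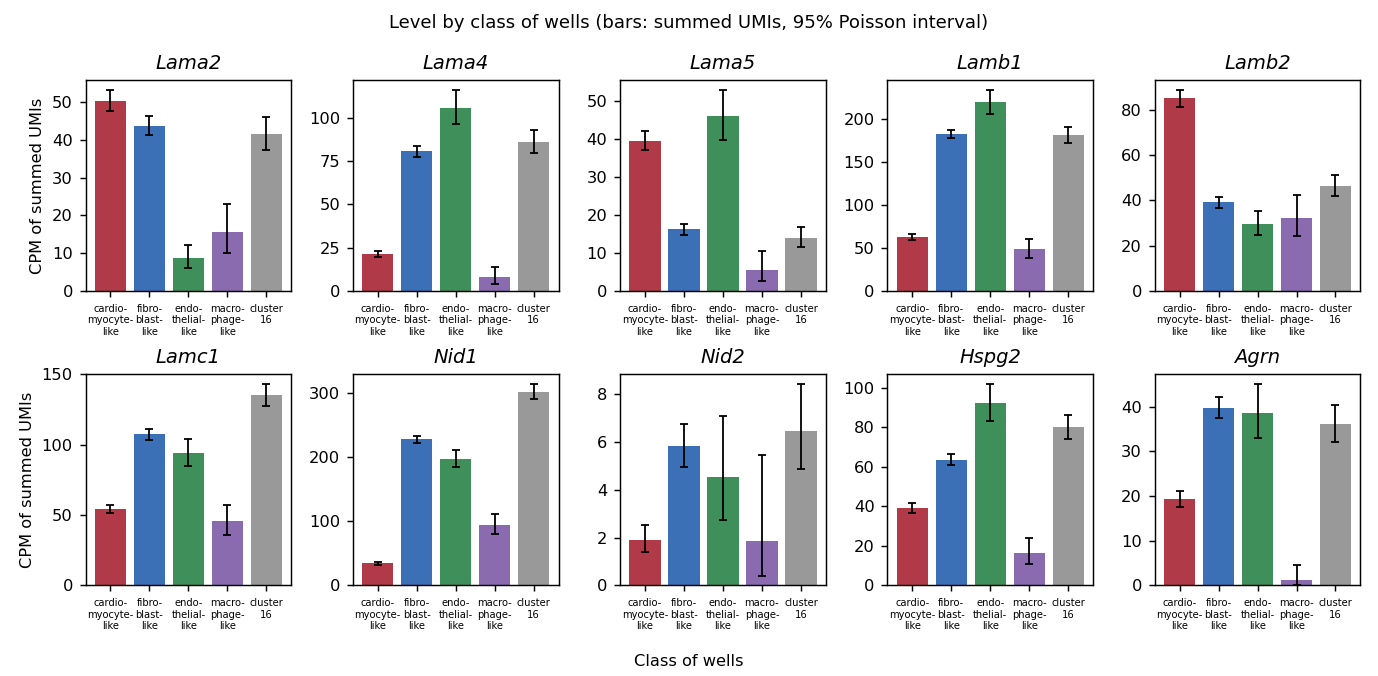
CPM of summed UMIs (bars, linear axis from 0, with 95% Poisson intervals) for the 10 genes in 4 named classes of wells and in cluster 16. The red cardiomyocyte-like bar is the highest of the named classes for Lama2 and Lamb2 (50.2 and 84.9 CPM) and is 6.67 times below the fibroblast-like bar for Nid1.

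Classes also differ in which Types fill them, so the same comparison was made inside each of the 6 co-culture Types of the cardiomyocytes library. Lamb2 was higher in cardiomyocyte-like than in fibroblast-like wells in 6 of 6 Types, at 71.3 to 104 CPM (median 78.7) against 17.6 to 56.3 CPM (median 31.4), with no overlap. Lama2 was also higher in cardiomyocyte-like wells in 6 of 6 Types, but its ranges overlapped, at 30.2 to 72.6 CPM against 12.6 to 31.6 CPM. Of all genes measured, 13.4% were higher in cardiomyocyte-like wells in every Type, and 2 of the 10 genes were.

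In the other direction stood Lama4, Lamb1, Lamc1 and Nid1, which were higher in fibroblast-like wells in 6 of 6 Types, as were 28.4% of all genes. Nid1 ran from 130 to 254 CPM in fibroblast-like and from 13.7 to 42.3 CPM in cardiomyocyte-like wells, and Lamb1 from 113 to 236 CPM against 43.4 to 79.9 CPM. Hspg2 and Agrn were higher in fibroblast-like wells in 5 of 6 Types, Lama5 in cardiomyocyte-like wells in 5 of 6, and Nid2 had no clear side, with 2 of 6. These shares of 2 and 4 genes in 10 stand near those of all genes, so the list as a whole does not stand apart. What the data give is the side of single genes in these co-culture Types. For Lama2 that side depended on how classes were made. With classes by summed markers, over all Types, it was at 44.6 CPM in fibroblast-like and 45.1 CPM in cardiomyocyte-like wells.

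The receptors also divided between the classes. Of 23 receptor genes measured, 8 were higher in cardiomyocyte-like wells in every Type, against 13.4% of all genes, among them Dag1, Dmd, Sgca and Sgcb, which are parts of the dystroglycan complex that binds laminin, and Itga7, Bcam and Gpc1. Dag1 ran from 54.9 to 112 CPM in cardiomyocyte-like and from 6.39 to 36.2 CPM in fibroblast-like wells, and Itga7 from 48.3 to 94.7 CPM against 6.39 to 19.4 CPM. Another 5 receptor genes were higher in fibroblast-like wells in every Type, against 28.4% of all genes, and they included Sgce and Utrn, which also belong to or bind that complex, with Sdc1 and Sdc2. The fifth, Itgb1, ran from 1277 to 1955 CPM against 836 to 991 CPM. Of 19 other basement membrane genes measured, 9 were higher in fibroblast-like wells in every Type, Col4a1 and Col4a2 among them, and 2 in cardiomyocyte-like wells, Ntn1 and Frem2, to be read against the same shares of 28.4% and 13.4%.

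The Types were then set against each other within a class. A gene was counted as apart where the Types of one name did not overlap those of the other and the summed levels differed at least 1.5-fold, among genes measured at 20 CPM or more in at least 1 Type. The labels do not call numbered Types replicates, so these are descriptions with no test. The class of fibroblast-like wells was filled by different clusters in the NF and AF cultures, with AF and AFNCM wells mostly in clusters 3 and 14 and NF and NFNCM wells mostly in clusters 4 and 11.

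In fibroblast-like wells of the co-cultured fibroblasts, AF against NF, 4 of 8 genes measured were apart, against 29.0% of all genes. Agrn measured 53.9 and 68.4 CPM in the AF Types and 12 and 16.1 CPM in the NF Types, a ratio of 4.35 (3.40 to 5.62). Lama4 was at 122 and 125 CPM against 37.3 and 67.1 CPM, and Lamb2 at 33.6 and 44.0 CPM against 29.5 and 18.0 CPM. Hspg2 lay the other way, at 40.9 and 38.2 CPM against 61.6 and 76.8 CPM. All 4 were also apart without the well that held most UMIs of the gene in each Type.

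Fibroblast-like wells among the AFNCM and NFNCM Types come from other Types and from the other library, and 4 of 10 genes were apart there, against 13.9% of all genes. Agrn measured 54.1, 69.9 and 160 CPM in AFNCM and 1.76, 18.5 and 19.2 CPM in NFNCM. All AFNCM Types were above all NFNCM Types, though 1 well held 48.4% of the Agrn UMIs of the highest, and without the top wells the values were 41.6, 45.7 and 88.4 CPM against 0.884, 12.2 and 0 CPM. Lama4, at 103, 95.2 and 101 CPM against 49.2, 77.8 and 28.7 CPM, and Lamb2, at 36.5, 56.3 and 39.6 CPM against 20.2, 26.4 and 17.6 CPM, were higher in AFNCM. Nid1 was lower, at 130, 164 and 139 CPM against 254, 200.4 and 193 CPM, but it was no longer apart once the top wells were left out.

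Lama4 therefore had opposite signs in the 2 data sets. It was lower in the imCM-AF bulk libraries, where fibroblast and endothelial marker sums were also lower, and higher in AFNCM than in NFNCM wells of either class. Over all kept wells it was at 55.5, 57.1 and 51.9 CPM in AFNCM and 25.8, 24.1 and 17.7 CPM in NFNCM. Agrn had the same sign in both, at 27.5, 35.5 and 46.1 CPM in all kept AFNCM wells and 7.84, 8.91 and 16.2 CPM in all kept NFNCM wells. The mix of classes differed, and cluster 2, which stayed unnamed, held 142 AFNCM and 82 NFNCM wells. Endothelial-like and fibroblast-like wells numbered 56 and 99 in AFNCM and 13 and 77 in NFNCM. Both genes had higher summed levels in these classes than in cardiomyocyte-like wells. The part of this mix in the values over all kept wells was not tested.

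In cardiomyocyte-like wells, AFNCM against NFNCM, 2 of 9 genes measured were apart, against 9.66% of all genes (7.37% higher in AFNCM). Lama5 measured 75.0, 46.2 and 56.4 CPM in AFNCM and 33.5, 17.3 and 26.9 CPM in NFNCM, a ratio of 2.28 (1.95 to 2.67). The bulk libraries showed no such rise of Lama5, whose groups overlapped there with a log2 fold change of -0.09. Lama4 measured 21.5, 28.3 and 28.9 CPM against 17.6, 13.2 and 11.8 CPM, so both alpha chains were higher in every AFNCM Type. Agrn overlapped, at 21.5, 30.8 and 15.9 CPM against 10.8, 7.02 and 16.6 CPM, so its separation in the cultures was not shown for this class. AFNCM cardiomyocyte-like wells were mostly of cluster 7, led by Sprr2a1 and Iigp1, and NFNCM wells mostly of clusters 1 and 5. The class leaves out the unnamed cluster 2, which held 12 of 15 cardiomyocyte markers at a median of 5184.5 UMIs a well. That cluster took 142 AFNCM and 82 NFNCM wells.

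**Figure D4:**
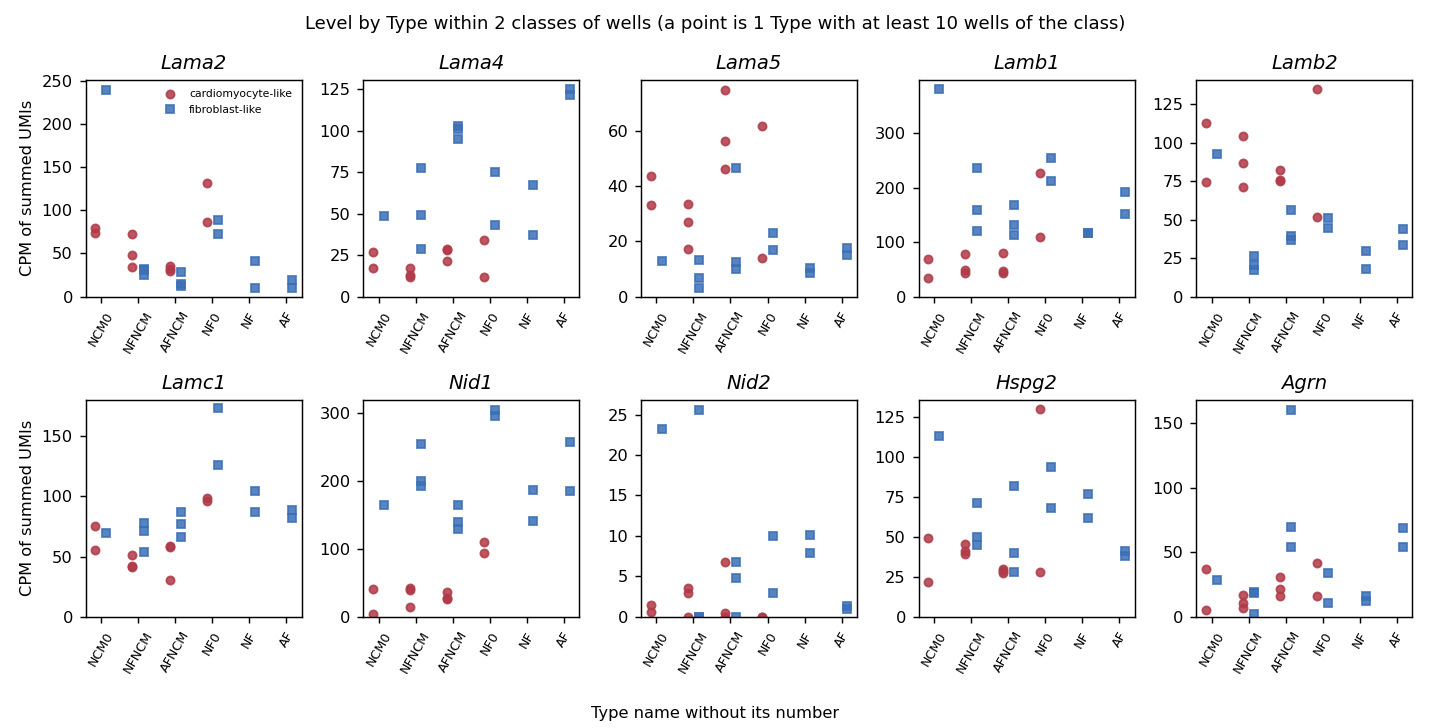
CPM of summed UMIs by Type name (its number left off) for the 10 genes, with red circles for cardiomyocyte-like and blue squares for fibroblast-like wells; a point is 1 Type with at least 10 wells of the class. Lamb2 circles lie above the squares in NFNCM and AFNCM, Nid1 squares lie above the circles, and Agrn squares of AF (53.9 and 68.4 CPM) lie above those of NF (12 and 16.1 CPM).

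Types whose names end in 0 differed from the co-cultured ones. Fibroblast-like NF0 wells were set against the NF wells already used above, and 6 of 9 genes measured were apart, all higher in NF0, against 26.0% of all genes (17.4% higher in NF0). They were Lama2, Lama5, Lamb1, Lamb2, Lamc1 and Nid1. The clusters that filled the class differed, with 115 NF0 wells in cluster 4, 75 in cluster 12 and 20 in cluster 11, and 76, 7 and 91 NF wells in the same clusters. Lama2 had the largest ratio, 3.23 (2.69 to 3.90), from 72.1 and 88.8 CPM in NF0 and 10.5 and 40.8 CPM in NF. Lamb1 was at 213 and 255 CPM against 117 and 117 CPM, and Nid1 at 295 and 304 CPM against 186 and 142 CPM. Without the top wells, all but Lama5 were still apart. Of 14 other basement membrane genes measured, 7 were apart and all of these were higher in NF0, to be read against the same 17.4%. Among them were Col4a1, at 2.11 times the NF level, Col4a2, at 2.24 times, and Col4a6, but not Col4a5.

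Cardiomyocyte-like NCM0 wells were compared with NFNCM and AFNCM wells, which were also set against each other above. Of 188 NCM0 wells, 89 were in cluster 6 and 0 in cluster 7, which held 133 of the 210 AFNCM wells, whereas 128 and 113 of the 336 NFNCM wells were in clusters 1 and 5. In each comparison 1 of 9 genes was apart, Lama2, against 14.0% of all genes for NFNCM (10.3% higher in NCM0) and 16.6% for AFNCM (8.12% higher in NCM0). Lama2 measured 74.2 and 79.3 CPM in NCM0, 72.6, 48 and 34.5 CPM in NFNCM and 35.7, 30.2 and 32.1 CPM in AFNCM. NCM0 stood clear of AFNCM, by 2.39 times (2.03 to 2.81), but overlapped NFNCM once the top well of each Type was left out. Dag1, the receptor that Lama2 laminins bind, was at 127 and 156 CPM in NCM0, above all Types of both co-cultures.

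AF0 wells, nearly all in cluster 16, could not be named as fibroblasts by the markers, since they held 7 of 12 fibroblast and 7 of 12 endothelial markers, and their values are given over all kept wells. Against NF0, 3 of 9 genes were apart, against 36.1% of all genes, with Lama4 higher (108 and 71.9 CPM against 36.0 and 64.2 CPM) and Lama2 and Lama5 lower. Against AF, whose wells were also set against NF, 6 of 9 were apart, against 44.1% of all genes, with Lama2, Lamc1 and Hspg2 higher and Lama4, Lama5 and Agrn lower in AF0. Hspg2 measured 65.5 and 84.9 CPM in AF0 and 42.5 and 42.5 CPM in AF. Without the top wells, Lama4 was no longer apart from AF, and Lama5 was under the 20 CPM needed against NF0.

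The genes most like the members, Lamc1 aside, were found over 12 groups of Type name by class, among 9116 genes with at least 20 CPM in 1 group, by Pearson correlation of log2(CPM + 1); groups share libraries and differ in depth. Nid1 was most like Igfbp7 (0.977), Lamb2 like Trp53inp2 (0.975), Lama5 like Grhpr (0.957) and Lamb1 like Myof (0.952). For Lama4 it was Klf6 (0.948), for Nid2 Slc35a3 (0.944), for Lama2 Prkab2 (0.933) and for Hspg2 Lrrc8c (0.923). Of these members, Agrn had the weakest best match, Zfp532 (0.864). Each value is the highest among 9116 genes over only 12 groups, and how high such a best match runs by chance was not tested. That of Nid2 also rests on few UMIs.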

How the data were processed

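Bulk RNA sequencing covered 2 imCM-NF and 2 imCM-AF libraries, and single-cell sequencing 1 cardiomyocytes and 1 fibroblasts library. The authors deposited raw counts per gene for the bulk libraries, aligned to mm10 (the submitters' processing notes list Subread 1.4.6-p1, featureCounts and STAR 2.5.2b), and UMI counts per gene and well for the single cells. Whether counting used strand was not stated, so Lama2, Lama5, Lamc1, Nid2, Hspg2 and Agrn, which overlap other annotated genes, are uncertain to that extent. Their table of fold changes and p-values was not used. No symbol was matched for 1904 bulk identifiers, which held 3.52% of counts. The 10 genes, the other lists and several comparisons were chosen with earlier results of these data known.

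Bulk genes with a CPM over 1 in at least 2 libraries were tested with edgeR 4.0.16 in R 4.3.3 (TMM scaling, group as the only term, Benjamini-Hochberg adjustment over all tested genes), with the cut-offs the study had set in limma. Lengths for RPKM were exon unions of GENCODE basic transcripts on GRCm38, matched by Entrez identifier. Libraries of a group differed beyond sampling noise (chi-square per degree of freedom 8.60 and 8.42). The procedures were tested on simulated data.

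The study's filter on wells was applied (500 or more genes, alignment above 50%, UMI total within 2 SD of the mean), spike-in columns were left out, and scanpy 1.11.5 clustered them (10 components, 30 neighbours, resolution 1). Totals were summed over all 30716 gene columns, 30574 of them outside the lists. Clusters were made from variable genes among these columns, without the 10 genes, the other basement membrane genes and the receptors. The cell type markers were not left out of the clustering. No doublet caller was run. A cluster held a marker that was at 10 CPM or more and above its mean over clusters, and was named by the list it held the largest share of, if that was at least 50%, unless its leading genes or depth went against the name; this rule was set after the clusters were seen, and cluster 8, of 94 cardiomyocyte-like wells, also held 7 of 12 fibroblast markers. The likeness of Lamc1 and 1 receptor gene by name are not reported here. The wells named AFNCM, NFNCM, AF or NF numbered 1648 before filters and 1513 after. Intervals are exact (Poisson for levels, binomial for shares). Genes outside the 10 were named where called (at most 8 a list by fold change), or as fixed receptors and collagens; the comparison inside Types was added after values were seen. Alternatives covered scaling, filters, tests, thresholds, the replicate block, single libraries left out, well filters, class definitions and top wells.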

Additional observations from a re-analysis of the deposited data

How the results depend on the processing

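Over all genes, 1564 were called; the count was 3789 by adjusted p alone, 565 at an absolute log2 fold change over 1, and between 879 and 1929 when 1 bulk library was left out (879 without imCM-NF replicate 2 and 988 if the second imCM-AF library is absent), where the lone library of a group is assumed to vary like the other group. Of the 10 genes, 3 passed by adjusted p alone, 0 at a log2 fold change over 1, and between 1 and 2 with a library left out, the second being Lamb1 without imCM-AF replicate 1. Same-numbered libraries deviated with a correlation of -0.13. The replicate block gave 1430 calls, 1420 of them shared, and the crossed replicate block, added after seeing the data, 1668; both called 1 of the 10 genes, and the numbers are not a stated pairing. Small log2 fold changes turned sign with a library left out, with ranges of -0.19 to 0.013 for Lama5 (positive without imCM-NF replicate 1), -0.0063 to 0.19 for Lamb2 (negative without imCM-NF replicate 2), -0.10 to 0.14 for Nid2 (negative without imCM-AF replicate 1) and -0.11 to 0.13 for Nid1 (negative without number 1 of either group, and -0.0097 with no expression filter). Hspg2 passed the adjusted p with no filter (-0.35), in DESeq2 (-0.33) and in the crossed block (-0.34). The cause of these shifts was not tested.

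In the single cells, 4 of the 10 genes were highest in fibroblast-like wells, and 1 was with wells of at least 500 genes as the only filter or with only the cardiomyocytes library, where most moved to endothelial-like wells. Of 70 ratios of fibroblast-like to cardiomyocyte-like level, 28 moved beyond their intervals and 0 turned sign. The log2 ratio of Nid1 ran from 2.14 (classes by summed markers) to 4.27 (without cluster 8). That of Nid2 ran from 0.88 (classes by summed markers) to 2.35 (mean over wells). That of Lama2 ran from -0.51 (mean over wells) to -0.015 (classes by summed markers), which is close to even. Without the top well of each Type, 0 in place of 1 gene was apart between NCM0 and NFNCM, and 2 in place of 1 between NCM0 and AFNCM. Members with few UMIs, Nid2 above all, are limited by depth.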
